A study of Mus musculus with 72 samples.

Results

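The messenger RNA levels of 44 genes that carry out mitosis were followed in mouse macrophages across 72 libraries, which fall into 24 groups of 3. The genes were chosen by symbol. They encode the kinases and cyclins that start mitosis (Cdk1, Ccnb1, Ccnb2, Aurka, Plk1), proteins of the centromere and kinetochore (Cenpa, Cenpe, Cenpf, Ndc80, Nuf2, Spc24, Spc25), the spindle checkpoint (Bub1, Bub1b, Ttk, Mad2l1) and the chromosomal passenger complex (Aurkb, Birc5, Incenp, Cdca8). Further members are kinesin motors (Kif11, Kif20a, Kif23, Kif2c, Kif4) and genes of anaphase and cohesion (Cdc20, Ube2c, Pttg1, Espl1, Cdca5), with which Cdca3 of mitotic entry was grouped. The others are condensin subunits (Ncapd2, Ncapg, Ncaph, Smc2, Smc4), Mki67 and Top2a of the chromosomes, and genes of spindle assembly and cytokinesis (Tpx2, Nusap1, Prc1, Anln, Ect2, Racgap1). All 44 were listed among the 8983 genes of both RAW264.7 dexamethasone experiments and among the 18254 genes of the IFNB1 experiment. Of the 9179 genes listed for marrow-derived macrophages they made up 31. Plk1, Cenpf, Nuf2, Spc24, Spc25, Ttk, Aurkb, Birc5, Kif2c, Kif4, Cdc20, Espl1 and Cdca5 were not listed there. Every listed member passed the filter for low values, at least 1 TPM in at least 3 libraries.

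Bone marrow-derived macrophages are primary cells, here grown from C57BL/6J marrow for 7 days with supernatant of L929 fibroblasts and then moved to serum-free medium for treatment. RAW264.7 is a macrophage-like line from BALB/c mice, kept in medium with serum. The marrow-derived libraries labelled Setd1bKO and their controls, titled wt with the genotype label Setd1bHet, received 1 of 3 treatments. These were 1 uM of the glucocorticoid dexamethasone (Dex) for 16 h and the bacterial endotoxin LPS for 6 h, 0.1% ethanol for 16 h and LPS for 6 h, or vehicle alone for 16 h. RAW264.7 cells labelled Setd1aDel/+, with a deletion in 1 copy of Setd1a as the label reads, and wild-type (wt) RAW264.7 cells received the same treatments in a 16 h experiment. A 6 h experiment on the same genotypes gave Dex with LPS, LPS, Dex alone or vehicle for 6 h, and an IFNB1 experiment gave LPS with 10 ng/ml interferon beta or LPS alone for 6 h. The labels write the LPS dose as 100 ng/ml in places and as 100 ng/ul in others. They describe the marrow donors as wild-type male mice in one field and as female in another, and give neither their age, how the alleles were made, nor whether the RAW264.7 lines are single clones. They call the replicates biological without saying what separated them, so that p-values measure the spread between libraries, which may be technical.

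In mitosis the kinase Cdk1 with cyclin B drives chromosome condensation and the building of the spindle, kinetochores tie chromosomes to microtubules, and the spindle checkpoint holds the anaphase-promoting complex in check until all are attached. The complex then destroys securin and cyclin B, which lets separase part the sister chromatids and the cell divide. Messenger RNAs of these proteins accumulate in G2 and M phase and are low in resting cells, in part through the DREAM complex, which binds cell-cycle homology regions (CHR) in their promoters beside CCAAT boxes bound by NF-Y. Terminally differentiated macrophages divide little, while RAW264.7 cells divide continuously.

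The bases before the RefSeq start site were read on GRCm38.p6 for 4 genes on which the comparisons turn. Cdk1, Kif11 and Cdc20 are among the members that fell with LPS in every comparison of LPS with vehicle that listed them. Mki67 is among those that were higher with LPS in marrow-derived cells. Each line gives the 150 bases before the RefSeq start, 5′ to 3′ on the gene's strand, and capitals mark the CHR letters TTTGAA or TTCGAA, the CCAAT box and the E2F letters TTCCCGC or TTGGCGC or TTCGCGC, searched on both strands.
Cdk1, chr10:69352913-69353062, minus strand: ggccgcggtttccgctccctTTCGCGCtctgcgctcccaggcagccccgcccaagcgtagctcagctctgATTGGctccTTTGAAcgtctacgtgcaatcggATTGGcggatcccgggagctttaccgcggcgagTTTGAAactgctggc
Kif11, chr19:37376232-37376381, plus strand: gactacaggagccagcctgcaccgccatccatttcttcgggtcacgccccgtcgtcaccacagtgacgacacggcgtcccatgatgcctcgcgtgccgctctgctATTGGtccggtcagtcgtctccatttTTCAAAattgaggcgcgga
Cdc20, chr4:118437344-118437493, minus strand: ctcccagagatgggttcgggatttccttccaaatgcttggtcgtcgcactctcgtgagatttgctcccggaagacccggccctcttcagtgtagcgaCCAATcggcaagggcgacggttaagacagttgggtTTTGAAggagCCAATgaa
Mki67, chr7:135716380-135716529, minus strand: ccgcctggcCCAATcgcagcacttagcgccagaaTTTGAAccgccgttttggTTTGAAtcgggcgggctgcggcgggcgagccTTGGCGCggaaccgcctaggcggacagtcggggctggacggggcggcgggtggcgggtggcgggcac
All 4 windows hold both a CHR and a CCAAT box, which 10 of 38 member promoters (26.3%) held in the same 150 bases. Pttg1 and Mad2l1, also higher with LPS in control marrow-derived cells, held neither in the 250 bases before the RefSeq start. Ndc80, Ncaph, Nusap1 and Anln, which fell with LPS in the same cells, also held neither there. The RefSeq start lies 26 bases (Cdk1) and 9 bases (Cdc20) inside the gene as GENCODE M21 annotates it, so that the last bases of these lines are transcribed there, and 21 bases (Kif11) and 18 bases (Mki67) before it. Over the 250 bases before the RefSeq start, 38 members had a promoter in the table. A CHR was present in 15 of them (39.5%), against 17.4% of all 27025 promoters of that length, and a CCAAT box in 28 (73.7%), against 34.5%. Both occurred together in 13 (34.2%), against 6.21%, while the E2F letters were in 4 (10.5%), against 6.79%. The RefSeq and GENCODE starts lay more than 50 bases apart for 10 of the 38, Pttg1 (270 bases) and Mad2l1 (169) among them, so that the window before the start differs between the annotations for these. Of the other 28, 12 held a CHR and 22 a CCAAT box. In the Ccnb1 promoter 1 pair of motifs overlaps. A match is a run of letters and was not tested for binding.

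Summed over the listed members, vehicle libraries held 215 ± 10.5 TPM in marrow-derived cells labelled Setd1bKO and 376 ± 15.5 TPM in controls. The sums in RAW264.7 vehicle libraries were 3309 ± 60.3 TPM (Setd1aDel/+) and 3958 ± 81.2 TPM (wt) at 16 h, and 2613 ± 14.0 TPM and 2911 ± 62.3 TPM at 6 h (SD, n = 3 each). TPM (transcript levels per length, scaled to a fixed total) carry no read depth, so that no counting interval can be given. Cenpa, the histone variant that marks the centromere, was the highest member per length in vehicle cells, with 469 ± 29.97 TPM in wt cells at 16 h, 311 ± 34.4 TPM in wt cells at 6 h and 62.996 ± 5.74 TPM in control marrow-derived cells. At the low end stood Cenpe, a kinetochore motor, with 2.10 ± 0.037 TPM in the marrow-derived controls. In bulk RNA, fewer dividing cells and less of these RNAs per dividing cell cannot be told apart.

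**Figure D1:**
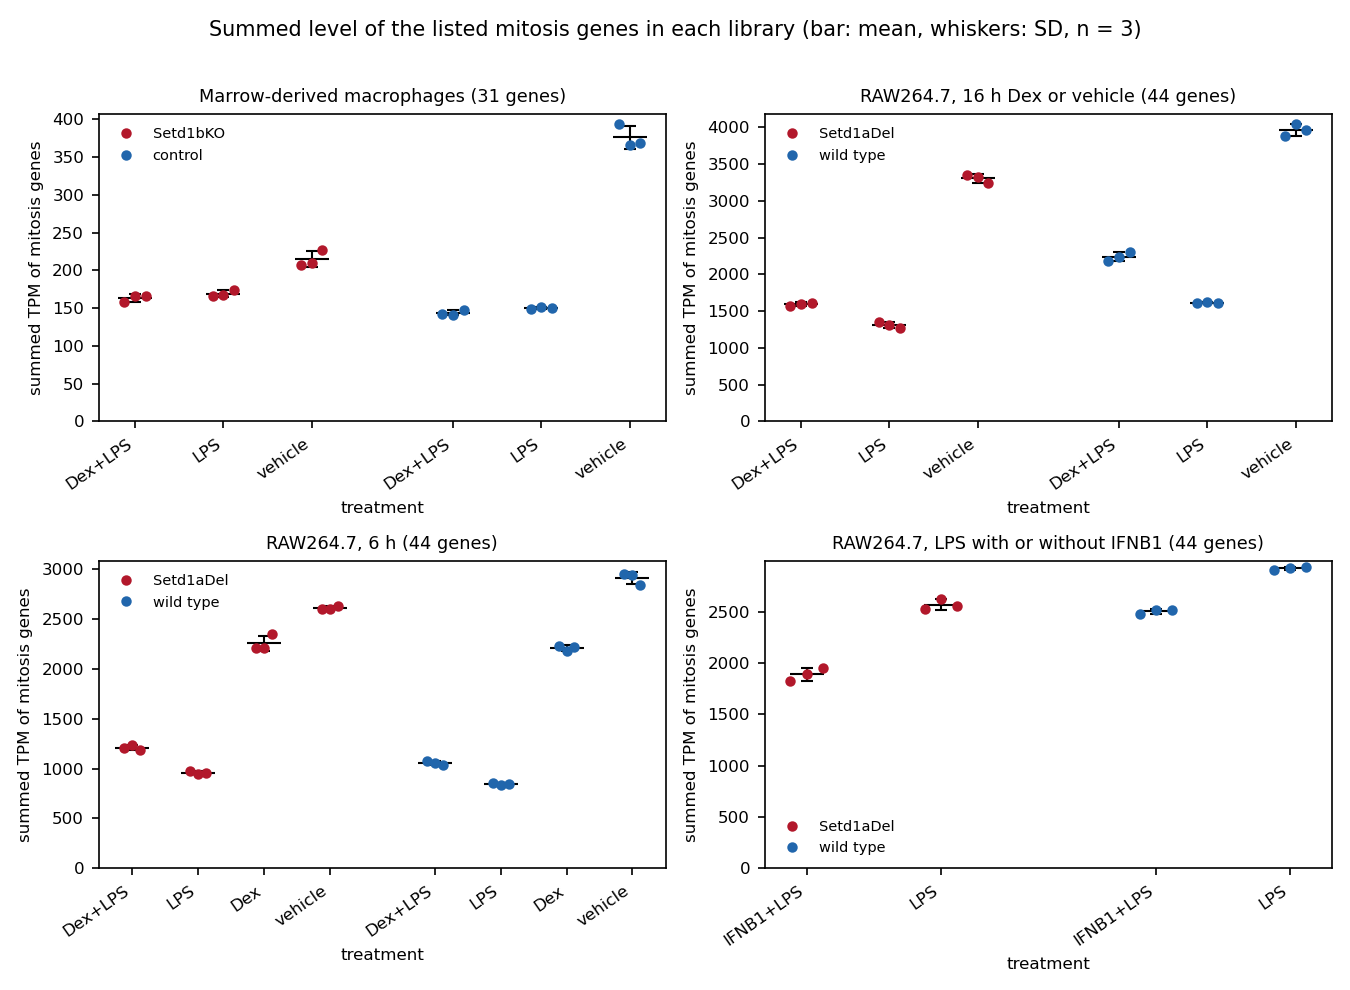
Summed TPM of the listed members (y axis, linear from 0) in each library, by experiment and group on the x axis, with the group mean as a horizontal dash and its SD as whiskers. LPS groups stand below their vehicle groups in all 3 experiments that have both, and marrow-derived cells, with 31 listed members, stand far below RAW264.7 cells.

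The libraries were set against their labels first. Setd1a, the deleted gene in RAW264.7 cells, averaged 24.7 ± 3.65 TPM in Setd1aDel/+ cells and 38.98 ± 7.18 TPM in wt cells under vehicle at 16 h. Its mean was lower in Setd1aDel/+ cells in every RAW264.7 group, and the difference was called in the 16 h and IFNB1 experiments but in none of the 4 comparisons at 6 h. Setd1b was not lower in the libraries labelled Setd1bKO: it stood at 10.1 ± 0.359 TPM there and at 4.54 ± 0.68 TPM in controls under vehicle, a log2 difference of 1.00 ± 0.21 (SE; adjusted p = 0.00235). Which exons were deleted is not given in the labels, so that whether this gene-level value checks the label is not known. Of 8 macrophage markers, all were listed in marrow-derived cells and 7, without Mertk, in the RAW264.7 Dex experiments. No marker of myeloid progenitors, lymphocytes or erythroid cells was listed in those tables, and 1 fibroblast marker was listed in marrow-derived cells.

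LPS lowered nearly all listed mitosis genes of control marrow-derived cells and raised 3. The mitotic kinase Cdk1 was at 4.37, 4.13 and 4.20 TPM with LPS, against 36.8, 34.2 and 35.03 TPM with vehicle. The topoisomerase Top2a, which untangles sister DNA, was at 0.715, 0.737 and 0.714 TPM with LPS, against 14.3, 13.2 and 12.7 TPM with vehicle. Cenpa was at 2.16, 1.05 and 4.20 TPM with LPS, against 69.5, 60.8 and 58.7 TPM with vehicle. For all of these every LPS library lay far below every vehicle library. On the log2(TPM + 1) scale, which understates changes of low genes, the changes were -2.79 ± 0.09 (SE; adjusted p = 6.43e-14) for Cdk1, -3.06 ± 0.07 (SE; adjusted p = 5.74e-16) for Top2a and -4.30 ± 0.36 (SE; adjusted p = 1.24e-08) for Cenpa. These and all later adjusted p are from limma with Benjamini-Hochberg adjustment over all genes tested, two-sided, and a gene is called under 0.05.

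Of the 31 members, 28 fell and 3 rose with LPS in control marrow-derived cells, where 64.7% of the 9159 genes tested fell and 20.6% rose. The members' median change was -2.30, against -0.49 over all genes. With LPS 20 of the 31 averaged under 1 TPM in these cells, against 0 with vehicle. Many thus passed the filter through vehicle libraries, in which they were high, and the count of 28 rests in part on such members. Median-of-ratios scaling moved the median of all genes by 0.49 and split their calls into 3556 lower and 3564 higher in place of 5925 and 1887, and left 26 members lower and 3 higher. All 4 kinases and cyclins listed fell (median -2.52), as did all 3 kinesins, all 3 kinetochore genes and all 6 genes of the spindle and cytokinesis. Cdca3, which promotes mitotic entry, changed by -3.40, Racgap1, a part of centralspindlin, by -3.11 and Prc1, which bundles microtubules in the midzone, by -2.91. Of the condensin subunits Smc4 changed least, by -0.52, a call that was lost under median-of-ratios scaling (adjusted p = 0.851), as was that of Tpx2, -0.50 (adjusted p = 0.733). Other markers moved in the same libraries. Of the 8 macrophage markers 5 fell and 3 rose, and their sum was 25036 to 26847 TPM with LPS, against 37810 to 38777 TPM with vehicle. The 3 listed neutrophil markers (S100a8, Mmp8 and Csf3r) summed to 204 to 209 TPM with LPS, against 104 to 107 TPM with vehicle, and Pdgfrb, the 1 listed fibroblast marker, was at 8.42 to 9.15 TPM, against 0.033 to 0.041 TPM. Their part in the LPS change was not tested.

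The 3 members that rose were Pttg1, Mki67 and Mad2l1. Pttg1, which encodes the separase inhibitor securin, was at 68.6, 71.998 and 67.99 TPM with LPS, against 24.5, 26.3 and 27.1 TPM with vehicle. Mki67, the coat protein Ki-67 of mitotic chromosomes and a usual marker of dividing cells, was at 15.5, 14.8 and 15.1 TPM with LPS, against 7.32, 7.95 and 6.58 TPM with vehicle. For both, all LPS libraries lay above all vehicle libraries. The changes were 1.39 ± 0.06 (SE; adjusted p = 1.86e-12) for Pttg1 and 0.96 ± 0.10 (SE; adjusted p = 2.38e-07) for Mki67, and neither turned under any alternative. Mad2l1, the checkpoint protein Mad2, was at 22.3, 22.5 and 23.2 TPM with LPS, against 21.7, 17.3 and 18.8 TPM with vehicle, so that the groups lay close without overlap. Its change of 0.23 ± 0.08 (SE; adjusted p = 0.0179) lost its call without control LPS replicate 3 (adjusted p = 0.0521), vehicle replicate 2 (0.104) or vehicle replicate 3 (0.0504).

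**Figure D2:**
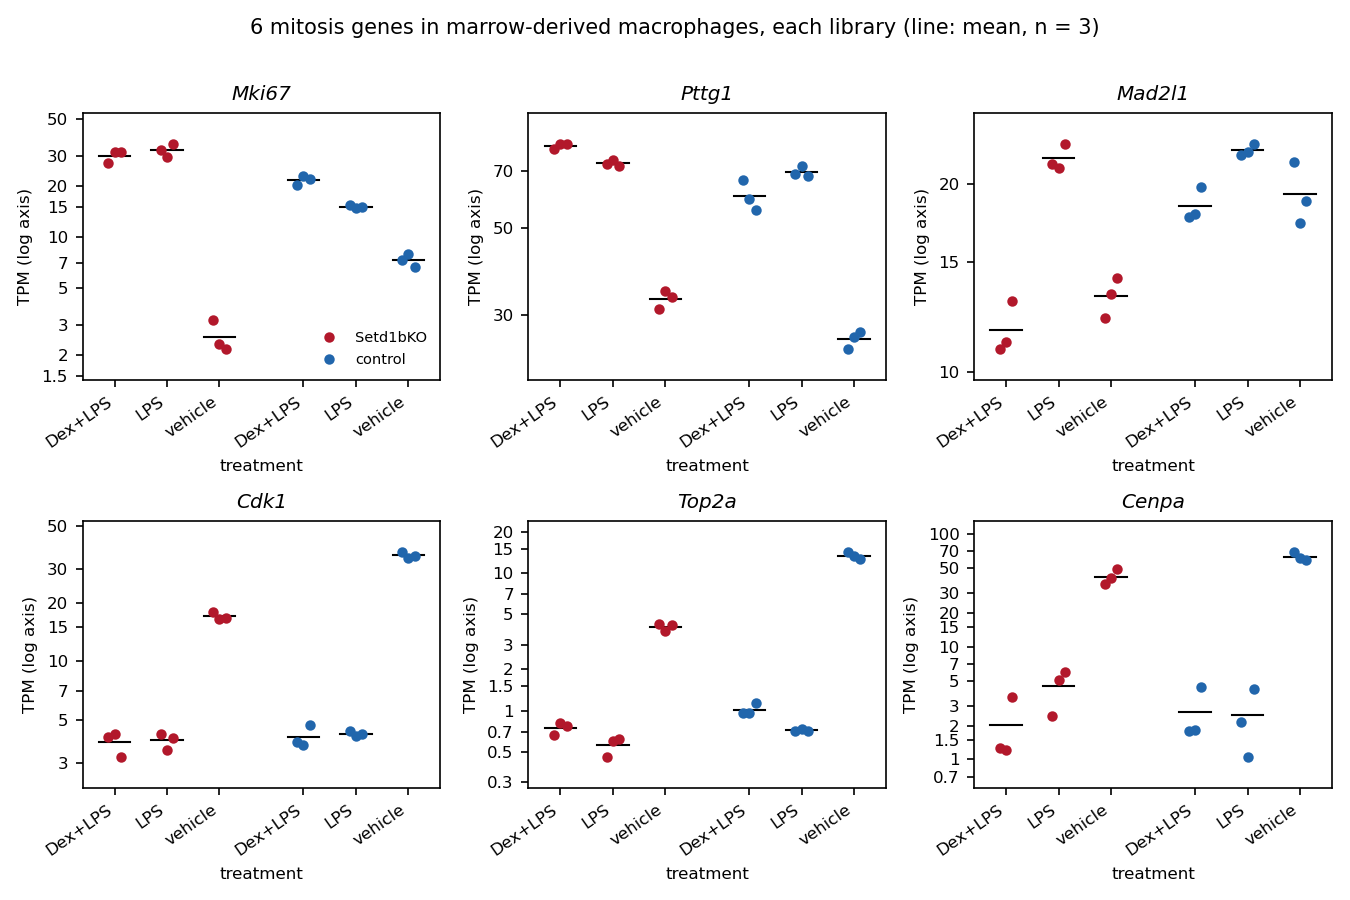
TPM (log axis) of members in the 18 marrow-derived libraries, 1 point per library, with groups by genotype label and treatment on the x axis. Short lines are group means. Cdk1, Top2a and Cenpa are lower with LPS than with vehicle under both labels, while Mki67, Pttg1 and Mad2l1 are higher.

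Under vehicle, mitosis genes were lower in the cells labelled Setd1bKO. There 29 of 31 members were lower in cells labelled Setd1bKO than in controls and 1, Pttg1, was higher, where 15.4% of all genes were lower and 9.89% higher. The members' median difference was -0.99, against -0.02 over all genes. Cenpe, at a mean of 0.853 TPM in vehicle libraries labelled Setd1bKO, passed the filter only through the control vehicle libraries, in which it was high. Cdk1 was at 18.05, 16.5 and 16.7 TPM in vehicle libraries labelled Setd1bKO, against the 34.2 to 36.8 TPM of the controls given above. Top2a was at 4.23, 3.81 and 4.20 TPM and Mki67 at 3.21, 2.30 and 2.16 TPM in the same libraries, below every control. The differences were -1.01 ± 0.09 (SE; adjusted p = 4.41e-07) for Cdk1, -1.50 ± 0.07 (SE; adjusted p = 1.34e-10) for Top2a and -1.23 ± 0.10 (SE; adjusted p = 2.13e-07) for Mki67. Cenpa, at 35.8, 40.9 and 48.6 TPM, was also below every control but was not called (-0.59, adjusted p = 0.257). Every group of roles had most of its listed members lower, among them all 5 condensin genes and all 3 checkpoint genes. The macrophage markers moved alongside: 7 of 8 were called lower, and their summed level was 24733 to 25491 TPM in vehicle libraries labelled Setd1bKO and 37810 to 38777 TPM in controls. The 3 listed neutrophil markers summed to 50.004 to 56.44 TPM and 104 to 107 TPM in the same groups. The part of either in the difference was not tested.

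LPS lowered most members in cells labelled Setd1bKO as well, by less than in controls on the log2(TPM + 1) scale, and raised Mki67 by more. With LPS against vehicle, 27 of 31 members fell and 3 rose in cells labelled Setd1bKO, where 58.2% of all genes fell and 24.9% rose. The members' median was -1.29, against -0.37 over all genes. With LPS 20 of the 31 averaged under 1 TPM under either label, against 1 with vehicle in cells labelled Setd1bKO. Many thus passed the filter through vehicle libraries, in which they were high. The count of 27 that fell and the differences of LPS changes below rest in part on such members. The members' median difference between the labels was -0.99 with vehicle and -0.03 with LPS, so that the smaller falls carry the lower vehicle level. Whether the response to LPS itself was weaker was not tested. Mki67 was at 32.9, 29.8 and 35.7 TPM with LPS in cells labelled Setd1bKO, against 3.21, 2.30 and 2.16 TPM with vehicle, and stood above every control library. The macrophage markers summed to 17263 to 17498 TPM with LPS in cells labelled Setd1bKO, against 24733 to 25491 TPM with vehicle, the neutrophil markers to 177 to 201 TPM, against 50.004 to 56.44 TPM, and their part was not tested. The LPS change of Mki67 was 3.26 ± 0.10 (SE; adjusted p = 5.51e-14) in cells labelled Setd1bKO. The difference of LPS changes, cells labelled Setd1bKO minus controls, was called higher for 27 of 31 members and lower for 1, against 16.4% and 5.43% of all genes. It was 2.29 ± 0.15 (SE; adjusted p = 5.82e-08) for Mki67, 1.36 ± 0.10 (SE; adjusted p = 1.33e-07) for Top2a and 1.24 ± 0.10 (SE; adjusted p = 5.44e-07) for Kif11, the motor that pushes the spindle poles apart. Cenpa (1.29, adjusted p = 0.0861), Ube2c (0.54, 0.0872) and Tpx2 (-0.01, 0.981) were not called. Scaling moved the median of all genes by -0.13 here and left 24 members higher and 1 lower. Pttg1 alone was called lower (-0.26), a call that was lost in 8 of the 12 fits that left out 1 library (adjusted p = 0.0554 to 0.0911).

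Between the labels under LPS, 5 of 31 members were lower and 1 higher in cells labelled Setd1bKO, against 12.4% and 29% of all genes. Mki67, at 32.9, 29.8 and 35.7 TPM against 15.5, 14.8 and 15.1 TPM in controls, differed by 1.06 ± 0.10 (SE; adjusted p = 6.83e-07). The lower ones were Ube2c, the ubiquitin-conjugating enzyme of the anaphase-promoting complex (-0.94), the spindle assembly factor Tpx2 (-0.76), Ccnb2, Cdca3 and Cenpe (-0.22 to -0.40). Tpx2 was at 2.98, 3.08 and 3.01 TPM with LPS in cells labelled Setd1bKO, against 5.91, 6.32 and 5.28 TPM in controls, without overlap. The floor is near: 20 of 31 members averaged under 1 TPM with LPS under either label, against 1 with vehicle in cells labelled Setd1bKO and 0 with vehicle in controls. At such levels a difference between labels was hardly detectable on the log2(TPM + 1) scale. The macrophage markers summed to 17263 to 17498 TPM with LPS in cells labelled Setd1bKO and 25036 to 26847 TPM in controls, and their part in these differences was not tested.

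With Dex and LPS against LPS alone, a smaller share of the mitosis genes of marrow-derived cells was called than of all genes, in either direction. In cells labelled Setd1bKO 2 of 31 members fell and 7 rose with Dex and LPS against LPS, where 13.5% of all genes fell and 39.2% rose. In controls 4 fell and 8 rose, where 15.2% fell and 44.8% rose. The members' medians were 0.04 in cells labelled Setd1bKO and 0.08 in controls, against 0.15 and 0.18 over all genes. Of the 31 members, 18 averaged under 1 TPM with Dex and LPS in cells labelled Setd1bKO and 20 with LPS. In controls these were 16 and 20. The macrophage markers summed to 18952 to 19825 TPM with Dex and LPS in cells labelled Setd1bKO, against 17263 to 17498 TPM with LPS. In controls they summed to 28660 to 30263 TPM, against 25036 to 26847 TPM. The 3 listed neutrophil markers summed to 464 to 534 TPM with Dex and LPS in cells labelled Setd1bKO, against 177 to 201 TPM with LPS. In controls they summed to 308 to 343 TPM, against 204 to 209 TPM. The part of either was not tested. The splits of the members turned to 5 lower and 2 higher under either label after median-of-ratios scaling, which moved the median of all genes by -0.16 in cells labelled Setd1bKO and -0.19 in controls. The authors' deposited table had 6 members lower and 1 higher in cells labelled Setd1bKO, and 5 and 2 in controls, at an adjusted p under 0.05. Single libraries moved the split too: it was 2 lower and 1 higher without replicate 2 of either group labelled Setd1bKO, 3 and 2 without LPS replicate 1 of that label, and 4 and 3 in controls without Dex and LPS replicate 3. Tpx2 and Mad2l1 were lower under both labels. Tpx2 was at 1.33, 1.92 and 1.39 TPM with Dex and LPS in cells labelled Setd1bKO, against 2.98, 3.08 and 3.01 TPM with LPS. In controls it was at 1.62, 1.65 and 1.37 TPM with Dex and LPS, against 5.91, 6.32 and 5.28 TPM with LPS, and the groups did not overlap under either label. The changes were -0.67 ± 0.09 (SE; adjusted p = 1.51e-05) in cells labelled Setd1bKO and -1.42 ± 0.09 (SE; adjusted p = 2.02e-09) in controls, with a difference of 0.76 between them (adjusted p = 0.00127).

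Mad2l1 was at 10.9, 11.2 and 12.96 TPM with Dex and LPS in cells labelled Setd1bKO, against 21.6, 21.2 and 23.2 TPM with LPS. In controls it was at 17.7, 17.9 and 19.8 TPM with Dex and LPS, against 22.3, 22.5 and 23.2 TPM with LPS. The groups were apart under both labels, more widely in the cells labelled Setd1bKO. The changes were -0.86 ± 0.08 (SE; adjusted p = 5.98e-07) in cells labelled Setd1bKO and -0.28 ± 0.08 (SE; adjusted p = 0.00823) in controls, and the difference between them was -0.58 ± 0.12 (SE; adjusted p = 0.00638). The difference of Dex changes was called for 4 of 31 members, 2 lower (Mad2l1 and Mki67) and 2 higher (Tpx2 and Pttg1), against 3.53% and 2.69% of all genes. For Mki67 it was -0.61 and lost its call without replicate 3 of the LPS libraries labelled Setd1bKO (adjusted p = 0.0576) or without control Dex and LPS replicate 2 (0.0558) or 3 (0.0502). Between the labels under Dex and LPS, 3 members were lower in cells labelled Setd1bKO (Mad2l1, Ccnb2, Top2a) and 3 higher (Mki67, Pttg1, Incenp), against 11.5% and 23.5% of all genes. Mki67 was at 27.3, 31.7 and 31.8 TPM in cells labelled Setd1bKO, against 20.2, 22.8 and 22.1 TPM in controls, a difference of 0.46 ± 0.10 (SE; adjusted p = 0.00268).

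In RAW264.7 cells LPS lowered every one of the 44 members, in both genotypes and both Dex experiments. At 16 h the counts were 44 of 44 lower in Setd1aDel/+ cells (66.4% of 8964 genes lower, 18.4% higher) and in wt cells (66.1% and 17.4%). At 6 h they were 44 of 44 in Setd1aDel/+ cells (49.2% of 8981 genes lower, 20.4% higher) and in wt cells (52.3% and 19.5%). The members' median changes were -1.50 in Setd1aDel/+ and -1.50 in wt cells at 16 h, where the medians of all genes were -0.41 and -0.38. At 6 h they were -1.55 and -1.79, beside -0.21 and -0.24 over all genes. Median-of-ratios scaling moved the median of all genes by 0.42 and 0.38 at 16 h and by 0.21 and 0.24 at 6 h, and left all members lower and called except 1 in wt cells at 16 h. The 7 listed macrophage markers moved in different directions. In Setd1aDel/+ cells they summed to 11321 to 13084 TPM with LPS, against 23104 to 24207 TPM with vehicle, at 16 h, and to 6969 to 7470 TPM, against 11744 to 12565 TPM, at 6 h. In wt cells they summed to 4524 to 4875 TPM with LPS, against 2682 to 3108 TPM with vehicle, at 16 h, and to 7933 to 8078 TPM, against 9365 to 9672 TPM, at 6 h. The sum was thus higher with LPS in wt cells at 16 h and lower in the other 3 pairs. S100a8, the 1 listed neutrophil marker, was higher with LPS in all 4 pairs, at 98.5 to 106 TPM in Setd1aDel/+ cells at 16 h, against 2.19 to 2.57 TPM with vehicle. The part of these markers in the LPS change was not tested.

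The size of the fall varied among the members. Mki67 was at 16.8, 16.6 and 15.2 TPM with LPS in wt cells at 16 h, against 71.9, 82.1 and 75.1 TPM with vehicle. Plk1, the kinase of centrosome maturation, was at 19.7, 18.4 and 19.5 TPM with LPS, against 62.003, 64.8 and 66.2 TPM with vehicle. In both the LPS libraries were clear of the vehicle libraries. The changes were -2.17 ± 0.09 (SE; adjusted p = 1.3e-12) for Mki67, the largest of the 44, and -1.69 ± 0.04 (SE; adjusted p = 3.13e-15) for Plk1. Pttg1 was at 71.6, 73.04 and 65.8 TPM with LPS, against 91.4, 97.9 and 105 TPM with vehicle. The groups were apart, and its change of -0.48 ± 0.09 (SE; adjusted p = 0.000162) was the smallest of the 44. Ube2c (-0.61), Cenpe (-0.78), Ccnb1 (-0.83), Cdk1 (-0.88) and the centrosomal kinase Aurka (-0.93) were the next smallest. The kinases and cyclins had the smallest median among the role groups at 16 h, -0.93, and the chromosome coat and topoisomerase pair the largest, -1.81.

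At 6 h the smallest change in wt cells was again that of Pttg1, -0.49 ± 0.08 (SE; adjusted p = 9.51e-06), and the largest that of Racgap1, -2.90 ± 0.20 (SE; adjusted p = 8.88e-11). Pttg1 was at 40.5, 44.4 and 40.4 TPM with LPS, against 58.5, 56.4 and 62.4 TPM with vehicle. Racgap1 was at 10.1, 10.4 and 12.4 TPM with LPS, against 95.1, 98.8 and 72.8 TPM with vehicle. The Racgap1 vehicle libraries spread widely, yet all stood far above the LPS libraries. Nusap1, which binds spindle microtubules near chromatin (-2.48), Birc5, or survivin (-2.35), and Ncapd2 of condensin (-2.29) came next to Racgap1, while Cenpe (-1.16), Aurka (-1.18) and Cenpf (-1.27) came next to Pttg1.

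**Figure D3:**
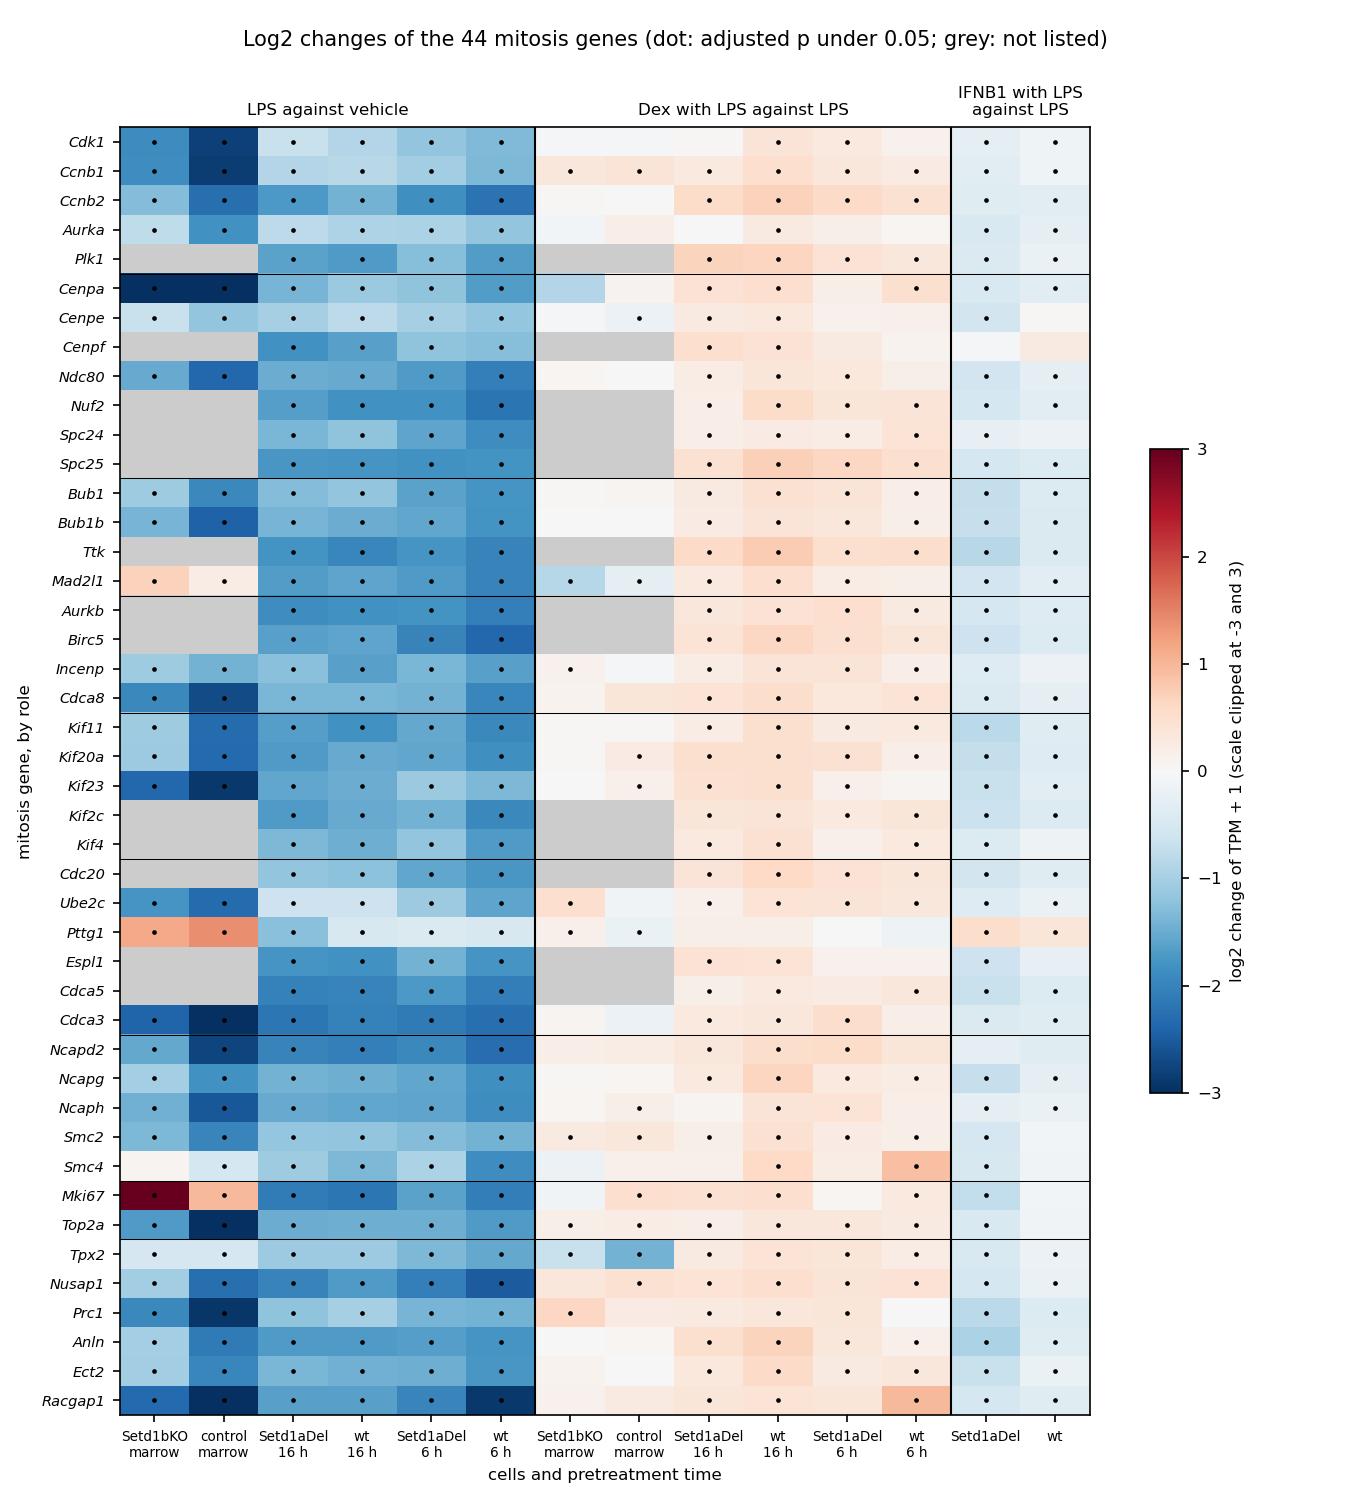
Log2 changes of TPM + 1 as colour (blue lower, red higher, clipped at -3 and 3) for each of the 44 genes, down the page by role, in 14 comparisons on the x axis with LPS, with Dex and LPS or with IFNB1 and LPS. Dots mark an adjusted p under 0.05 and grey marks genes not listed. The LPS columns of RAW264.7 cells are blue in every row, and those of marrow-derived cells are red for Mki67, Pttg1 and Mad2l1.

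The LPS change was smaller in size at 16 h than at 6 h for many members of wt RAW264.7 cells. In a joint fit of both experiments, the 16 h minus 6 h difference of LPS changes was called higher for 29 of 44 members and lower for 0, against 9.02% and 28.7% of 8981 genes. The members' median difference was 0.31, against -0.13 over all genes. It was 0.97 ± 0.07 (SE; adjusted p = 3.18e-12) for Ube2c, 0.79 ± 0.09 (SE; adjusted p = 2.55e-08) for Ccnb2 and 0.76 ± 0.10 (SE; adjusted p = 3.49e-07) for Birc5. Racgap1 had the largest, 1.27 ± 0.25 (SE; adjusted p = 0.000142). The summed macrophage markers, given above, moved with LPS in opposite directions in these wt cells, up at 16 h and down at 6 h, and their part in the difference was not tested. LPS lasted 6 h in both, and the length of the vehicle treatment and the experiment differ together and cannot be told apart.

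Dex given with LPS left the mitosis genes of RAW264.7 cells higher than LPS alone. At 16 h 39 of 44 members were higher with Dex and LPS in Setd1aDel/+ cells and 0 lower (29.8% and 14.9% of all genes), and 43 and 0 in wt cells (35.2% and 12.3%). At 6 h the counts were 32 and 0 in Setd1aDel/+ cells (22.1% and 10.7%) and 31 and 0 in wt cells (14.7% and 10.6%). The members' medians were 0.30 (Setd1aDel/+) and 0.46 (wt) at 16 h and 0.33 and 0.26 at 6 h, where those of all genes lay between 0.04 and 0.09. In wt cells the macrophage markers summed to 4143 to 4358 TPM with Dex and LPS at 16 h, against 4524 to 4875 TPM with LPS. At 6 h these were 6030 to 6313 TPM, against 7933 to 8078 TPM. In Setd1aDel/+ cells the sums overlapped, at 11553 to 11839 TPM against 11321 to 13084 TPM at 16 h. They overlapped at 6 h as well, at 6810 to 7165 TPM against 6969 to 7470 TPM. S100a8 was higher with Dex and LPS in both genotypes at both times. In Setd1aDel/+ cells at 16 h it was at 317 to 384 TPM, against 98.5 to 106 TPM. The part of these markers was not tested. Ttk, the checkpoint kinase Mps1, was at 11.6, 9.97 and 12.8 TPM with Dex and LPS in wt cells at 16 h, against 6.59, 5.79 and 6.40 TPM with LPS and 26.1, 27.3 and 28.7 TPM with vehicle. Dex and LPS thus stood above LPS and below vehicle in every library. The change over LPS was 0.77 ± 0.11 (SE; adjusted p = 2.5e-05), the largest of the 44. In the authors' deposited table, Dex with LPS over LPS was higher for 41 and lower for 0 members at 16 h in wt cells (36 and 0 in Setd1aDel/+ cells) at an adjusted p under 0.05, and for 28 and 0 at 6 h (29 and 0 in Setd1aDel/+ cells).

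Cdc20, which activates the anaphase-promoting complex, was at 48.5, 46.8 and 50.6 TPM with Dex and LPS in Setd1aDel/+ cells at 16 h, against 38.7, 37.2 and 35.4 TPM with LPS. In wt cells it was at 59.3, 60.02 and 64.5 TPM with Dex and LPS, against 41.5, 39.95 and 39.5 TPM with LPS. Both pairs were apart, the wt pair more widely. The difference of Dex changes at 16 h, Setd1aDel/+ minus wt, was called lower for 11 of 44 members and higher for 0, against 7.68% and 2.88% of all genes. It took in Ncapg, Ncaph, Smc2 and Smc4, 4 of the 5 condensin genes, and Cdk1, Aurka, Nuf2, Kif11, Ube2c, Cdc20 and Birc5. It was -0.35 ± 0.07 (SE; adjusted p = 0.004) for Ncapg and -0.37 ± 0.05 (SE; adjusted p = 0.000151) for Cdk1. Cdk1 was at 139, 136 and 137 TPM with Dex and LPS and 142, 135 and 128 TPM with LPS in Setd1aDel/+ cells, which overlapped. In wt cells it was at 173, 175 and 172 TPM with Dex and LPS and 131, 133 and 130.3 TPM with LPS, which did not. The count of 11 fell to 7 under median-of-ratios scaling and to 6 without Setd1aDel/+ Dex and LPS replicate 2 or wt LPS replicate 3, and to 7 without Setd1aDel/+ Dex and LPS replicate 1, Setd1aDel/+ LPS replicate 2 or wt Dex and LPS replicate 2 or 3. At 6 h the same difference was called higher for 3 members (Incenp, Kif20a and Prc1) and lower for 0, against 3.25% and 2.04% of all genes, and for 0 members without wt Dex and LPS replicate 2 or wt LPS replicate 3.

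Without LPS, Dex went the other way. After 6 h of Dex alone against vehicle, 25 of 44 members were lower in Setd1aDel/+ cells and 0 higher (18.3% and 12% of all genes), and 37 and 0 in wt cells (24.8% and 12%). The members' median was -0.22 in Setd1aDel/+ cells and -0.32 in wt cells, against -0.03 and -0.05 over all genes. The macrophage markers summed to 9690 to 10036 TPM with Dex alone in Setd1aDel/+ cells, against 11744 to 12565 TPM with vehicle. In wt cells they summed to 8648 to 8808 TPM, against 9365 to 9672 TPM. S100a8 was at 17.8 to 23.0 TPM with Dex alone in Setd1aDel/+ cells, against 2.74 to 4.29 TPM with vehicle. In wt cells it was at 18.9 to 25.7 TPM, against 5.29 to 6.28 TPM. The part of these markers was not tested. Ect2, the RhoA activator of cytokinesis, was at 21.01, 17.8 and 19.6 TPM with Dex alone in wt cells, against 29.01, 27.1 and 31.1 TPM with vehicle. With LPS it was at 10.5, 9.99 and 10.4 TPM when Dex was added, against 7.87, 7.72 and 8.29 TPM without. The groups were apart in both settings, in opposite directions. The changes were -0.56 ± 0.08 (SE; adjusted p = 2.37e-05) for Dex alone and 0.34 ± 0.08 (SE; adjusted p = 0.00437) under LPS, and Cdk1, at -0.51 and 0.12 (adjusted p = 0.0816), was called only for Dex alone.

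The difference itself, the Dex change under LPS minus that without LPS, was called higher for 37 of 44 members and lower for 0 in Setd1aDel/+ cells (20.6% and 9.52% of all genes). In wt cells the counts were 40 and 0 (21.2% and 9.24%). The members' median difference was 0.54 in Setd1aDel/+ cells and 0.57 in wt cells, against 0.08 and 0.08 over all genes. It was 0.89 ± 0.12 (SE; adjusted p = 1.1e-05) for Ect2, 0.62 ± 0.07 (SE; adjusted p = 1.55e-06) for Cdk1 and 0.72 ± 0.12 (SE; adjusted p = 0.000161) for Birc5 in wt cells. Pttg1 had a difference of 0.06 (adjusted p = 0.704), and with Cenpe, Cenpf and Prc1 it was among the 4 members not called in wt cells. The comparison of the Dex changes was added in each genotype after seeing the data. Between the genotypes the change with Dex alone differed for 1 member, Ube2c (0.45), which was lost without Setd1aDel/+ Dex replicate 3, against 0.189% of all genes higher and 0.1% lower.

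**Figure D4:**
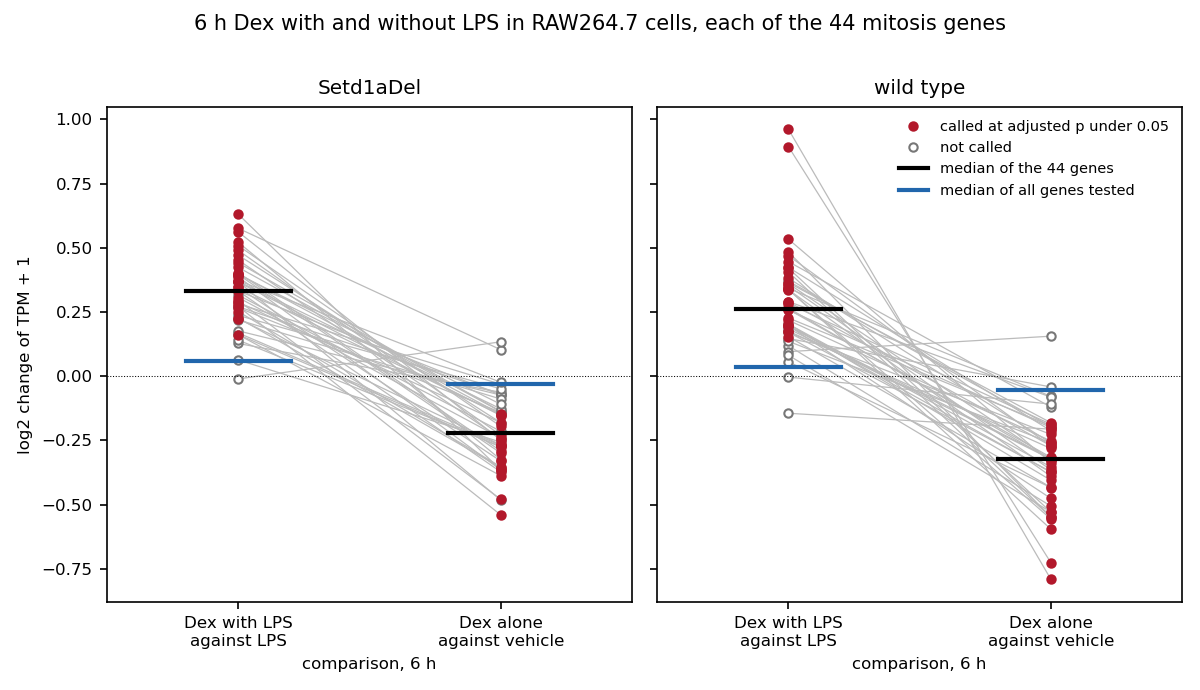
Log2 change of TPM + 1 (y axis) of each of the 44 genes in the 6 h experiment, with Dex and LPS against LPS at the left and with Dex alone against vehicle at the right of each panel, Setd1aDel cells in the left panel and wild-type cells in the right. Lines join the points of a gene, filled points passed the test, and dashes mark the medians of the 44 genes (black) and of all genes (blue). Filled points lie above 0 for Dex and LPS and below 0 for Dex alone.

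The 16 h minus 6 h difference of the Dex change under LPS in wt cells was called higher for 15 of 44 members and lower for 0, against 9.14% and 4.36% of all genes. After median-of-ratios scaling 8 members were called. Among the 15 were Anln, a scaffold of the contractile ring, at 0.52 ± 0.06 (SE; adjusted p = 3.79e-07), and Ncapg at 0.42 ± 0.08 (SE; adjusted p = 0.000271). Anln was at 23.2, 24.2 and 24.02 TPM with Dex and LPS at 16 h, against 15.1, 15.05 and 13.5 TPM with LPS. At 6 h it was at 13.7, 13.4 and 13.4 TPM with Dex and LPS, against 12.4, 12.02 and 11.7 TPM with LPS. Dex and LPS libraries lay higher at both times, by more at 16 h.

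Most mitosis genes were lower in Setd1aDel/+ than in wt cells in the 16 h experiment, while under LPS the 2 experiments of 6 h differed in direction. In the 6 h Dex experiment 25 of 44 members were higher in Setd1aDel/+ cells under LPS and 0 lower, and in the IFNB1 experiment, where LPS alone also lasted 6 h, 2 were higher and 18 lower. The members' medians under LPS were 0.22 and -0.11, beside -0.02 and -0.05 over all genes. These tables were deposited separately, and the difference between them was not tested. At 16 h 36 of 44 members were lower and 2 higher under vehicle (32.9% and 15.3% of all genes). Under LPS 36 were lower and 1 higher (42.4% and 17.5%), and under Dex and LPS 41 were lower and 0 higher (47.6% and 17%). The members' medians were -0.24, -0.27 and -0.40 in that order, against -0.08, -0.11 and -0.14 over all genes. Median-of-ratios scaling, which moved the median of all genes by up to 0.14, left 25 lower and 2 higher, 25 and 3, and 35 and 1. Anln was higher under vehicle (0.21) and LPS (0.21), and Nusap1 under vehicle (0.16). The macrophage markers moved in these libraries as well: the 7 listed summed to 23104 to 24207 TPM in Setd1aDel/+ cells and 2682 to 3108 TPM in wt cells under vehicle, and to 11321 to 13084 TPM and 4524 to 4875 TPM under LPS. Their part in the difference was not tested.

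At 6 h, 7 members were lower in Setd1aDel/+ than in wt cells under vehicle and 0 higher (15.6% and 6.58% of all genes), a split of 4 and 2 after median-of-ratios scaling. Under LPS 25 were higher and 0 lower (9.19% and 12.3%), and under Dex and LPS 33 were higher and 0 lower (13.1% and 13.1%). These were 15 and 20 when the compared groups were fitted alone. Under Dex alone 7 were higher and 1 lower (6.2% and 7.37%), a split of 8 and 0 after scaling. The 8 calls fell to 3 without Setd1aDel/+ Dex replicate 1 or wt Dex replicate 2 and to 2 without Setd1aDel/+ Dex replicate 3 or wt Dex replicate 1. The 7 macrophage markers summed to 6969 to 7470 TPM in Setd1aDel/+ cells and 7933 to 8078 TPM in wt cells under LPS. Under vehicle they summed to 11744 to 12565 TPM and 9365 to 9672 TPM in that order. Under Dex and LPS these were 6810 to 7165 TPM and 6030 to 6313 TPM, and under Dex alone 9690 to 10036 TPM and 8648 to 8808 TPM. The sum was thus lower in Setd1aDel/+ cells under LPS and higher under the other treatments. The part of these markers in the differences was not tested.

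Kif2c, a kinesin that takes microtubules apart, was at 9.19, 9.47 and 8.20 TPM in Setd1aDel/+ cells under LPS at 16 h, against 13.1, 11.98 and 11.99 TPM in wt cells. At 6 h it was at 8.87, 8.99 and 9.52 TPM in Setd1aDel/+ cells under LPS, against 6.58, 6.62 and 5.91 TPM in wt cells. The Setd1aDel/+ libraries were the lower ones at 16 h and the higher ones at 6 h, without overlap. The differences were -0.42 ± 0.06 (SE; adjusted p = 2.43e-05) at 16 h and 0.46 ± 0.06 (SE; adjusted p = 3.4e-05) at 6 h. In the IFNB1 experiment Kif2c was at 21.4 ± 1.10 TPM in Setd1aDel/+ cells under LPS alone, against 24.3 ± 0.416 TPM in wt cells (SD, n = 3 each), without overlap, a difference of -0.18 ± 0.05 (SE; adjusted p = 0.0161) in the direction of the 16 h experiment. Ccnb2, a cyclin partner of Cdk1, was at 20.7, 23.6 and 22.6 TPM in Setd1aDel/+ cells under LPS at 16 h, against 44.99, 45.1 and 42.6 TPM in wt cells. At 6 h it was at 11.8, 10.9 and 11.4 TPM in Setd1aDel/+ cells, against 10.2, 11.3 and 9.09 TPM in wt cells. The groups were far apart at 16 h and overlapped at 6 h. The differences were -0.96 ± 0.04 (SE; adjusted p = 2.62e-11) at 16 h and 0.14 ± 0.08 (SE; adjusted p = 0.208) at 6 h.

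The 16 h minus 6 h difference of the Setd1aDel/+ effect under LPS was called lower for 39 of 44 members and higher for 0, against 27.8% and 13.6% of all genes, with a members' median of -0.48 against -0.09. It was -1.10 ± 0.09 (SE; adjusted p = 1.54e-11) for Ccnb2, -0.98 ± 0.12 (SE; adjusted p = 5.51e-08) for Pttg1, -0.88 ± 0.09 (SE; adjusted p = 1.03e-09) for Kif2c and -0.76 ± 0.08 (SE; adjusted p = 7.16e-09) for Plk1. Anln (-0.03) and Spc25 (-0.10) were among the 5 not called. The comparison under LPS was added after seeing the data. Under vehicle the same difference was called lower for 14 members and higher for 1, against 11.7% and 11.6% of all genes, and for 21 and 2 after scaling. All 5 kinases and cyclins were among the 14, with Aurka at -0.52. The experiment and the exposure time again differ together and cannot be told apart.

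**Figure D5:**
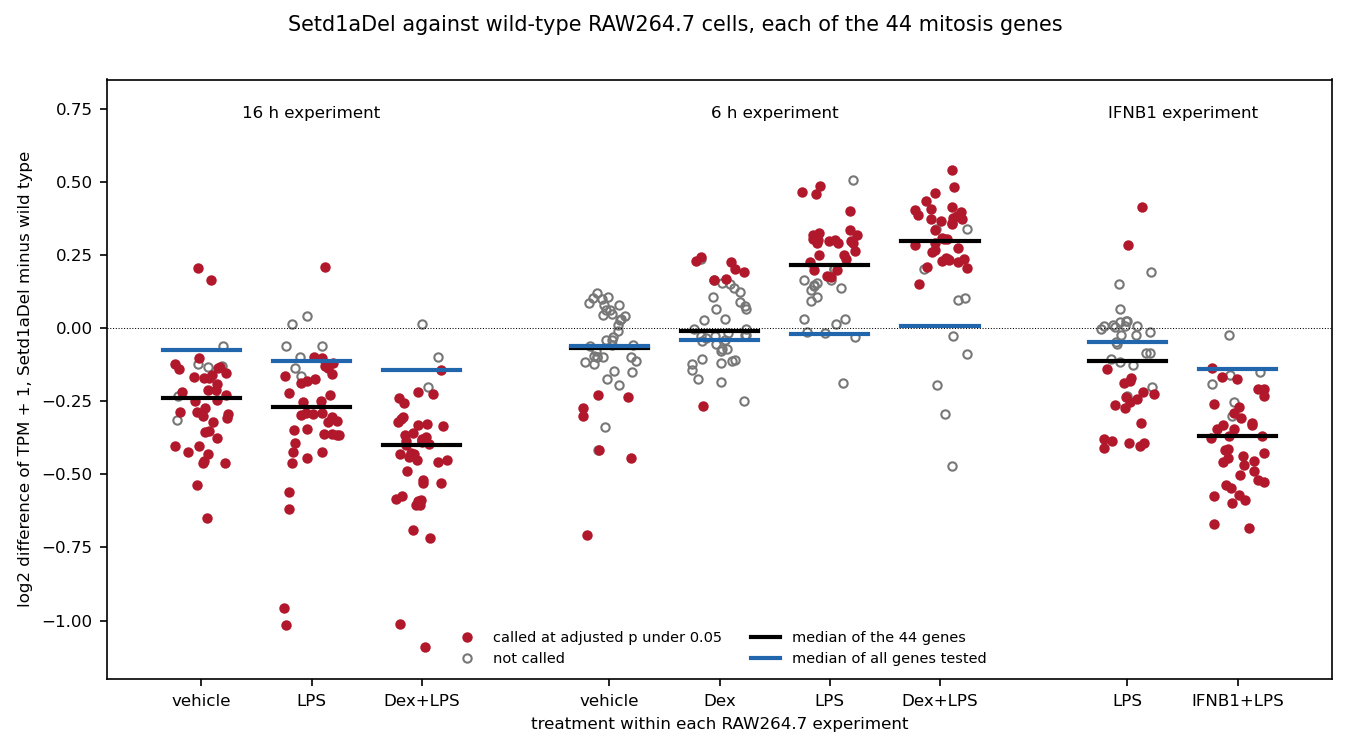
Log2 difference of each member between Setd1aDel/+ and wt cells (y axis), by treatment, in the 16 h, 6 h and IFNB1 experiments, 1 point per gene, filled where it passed the test. Dashes are the medians of the 44 genes (black) and of all genes tested (blue). Under LPS most points lie below 0 in the 16 h and IFNB1 experiments and above 0 in the 6 h experiment.

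The LPS change itself was also compared between the genotypes. At 16 h the difference, Setd1aDel/+ minus wt, was called lower for 4 and higher for 4 of 44 members (20.3% and 13.1% of all genes), with 5 called without Setd1aDel/+ vehicle replicate 2. For Pttg1 it was -0.78 ± 0.13 (SE; adjusted p = 0.000194). It was at 37.7, 36.7 and 28.9 TPM with LPS in Setd1aDel/+ cells, against 88.7, 84.6 and 77.2 TPM with vehicle. In wt cells it was at 71.6, 73.04 and 65.8 TPM with LPS, against 91.4, 97.9 and 105 TPM with vehicle. The fall was deeper in Setd1aDel/+ cells, where LPS libraries lay below all others. For Incenp, the scaffold of the passenger complex, it was 0.39 ± 0.05 (SE; adjusted p = 3.26e-05), a smaller fall in Setd1aDel/+ cells. At 6 h the difference of LPS changes was higher for 13 members and lower for 0, against 2.97% and 2.63% of all genes. It took in 4 of 5 kinesins, with Kif2c at 0.52 ± 0.09 (SE; adjusted p = 0.00148) and the chromokinesin Kif4 at 0.53 ± 0.11 (SE; adjusted p = 0.00616). The count was 7 without Setd1aDel/+ vehicle replicate 1 and 8 without wt vehicle replicate 3.

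Interferon beta added to LPS lowered most mitosis genes. In Setd1aDel/+ cells 41 of 44 members fell and 1 rose with IFNB1 and LPS against LPS, where 43.6% of 10923 genes fell and 10.5% rose. In wt cells 32 fell and 1 rose, where 23.5% fell and 9.5% rose. The members' medians were -0.52 in Setd1aDel/+ and -0.30 in wt cells, against -0.18 and -0.09 over all genes. The authors' deposited table had 38 members lower and 1 higher in Setd1aDel/+ cells and 25 and 1 in wt cells at an adjusted p under 0.05. The member that rose was Pttg1 in both genotypes. It was at 149.9, 147 and 153 TPM with IFNB1 and LPS in Setd1aDel/+ cells, against 101, 106 and 103 TPM with LPS. In wt cells it was at 152, 161 and 187 TPM with IFNB1 and LPS, against 128, 136 and 125 TPM with LPS. Every IFNB1 library lay above every LPS library of its genotype. The changes were 0.53 ± 0.06 (SE; adjusted p = 4.88e-05) in Setd1aDel/+ cells and 0.36 ± 0.06 (SE; adjusted p = 0.00157) in wt cells. Scaling moved the median of all genes by 0.17 in Setd1aDel/+ cells and left 36 members lower and 1 higher there, and 22 and 1 in wt cells.

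Anln was at 24.3, 29.1 and 30.3 TPM with IFNB1 and LPS in Setd1aDel/+ cells, against 52.2, 57.5 and 55.1 TPM with LPS. In wt cells it was at 38.3, 38.6 and 37.000 TPM with IFNB1 and LPS, against 49.1, 49.2 and 49.8 TPM with LPS. The groups were apart in both genotypes, by more in Setd1aDel/+ cells. The difference of the 2 changes was -0.59 ± 0.10 (SE; adjusted p = 0.00494). The same difference, Setd1aDel/+ minus wt, was called lower for 18 of 44 members and higher for 0, against 8.01% and 3.31% of all genes. It took in 5 of 6 genes of the spindle and cytokinesis and 3 of 5 condensin genes, with Kif11 at -0.45 ± 0.08 (SE; adjusted p = 0.00847). After median-of-ratios scaling 10 were called. The count was 9 without wt IFNB1 and LPS replicate 2, and 11 without Setd1aDel/+ IFNB1 and LPS replicate 1, Setd1aDel/+ LPS replicate 2 or wt LPS replicate 1 or 2. Between the genotypes 38 members were lower in Setd1aDel/+ cells and 0 higher under IFNB1 and LPS (38.4% and 15.8% of all genes). Under LPS alone 18 were lower and 2, Cenpe and Mki67, higher (24.9% and 17.7%). The 8 macrophage markers summed to 8556 to 8642 TPM with IFNB1 and LPS in Setd1aDel/+ cells, against 10778 to 10980 TPM with LPS, and to 6041 to 6084 TPM in wt cells, against 6741 to 6842 TPM. Their part in the IFNB1 changes and the genotype differences was not tested.

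DNA replication genes and mitotic genes outside the 44 were also lower with LPS, while regulators of G1 moved in both directions. In control marrow-derived cells 38 of 38 DNA replication genes fell (median -1.92) and 19 of 24 other mitotic genes fell with 0 rising (median -1.13), beside 64.7% of all genes lower and 20.6% higher. In wt RAW264.7 cells 45 of 45 replication genes fell at both times (medians -1.57 at 16 h and -1.69 at 6 h), with 56 and 57 of 57 other mitotic genes, beside 66.1% and 52.3% of all genes. Of 21 G1 regulators and inhibitors 14 fell and 7 rose in control marrow-derived cells (64.7% and 20.6% of all genes). In wt RAW264.7 cells 13 fell and 8 rose at 16 h (66.1% and 17.4%), and 11 fell and 8 rose at 6 h (52.3% and 19.5%). The shares that fell were thus near those of all genes, while the shares that rose were larger than those of all genes. Of the transcription factors of mitotic genes 9 of 14 fell and 3 rose in control marrow-derived cells, near the shares of all genes (64.7% and 20.6%). In wt RAW264.7 cells 13 of 15 fell at 16 h and 12 of 15 at 6 h, with 0 rising (66.1% and 52.3% of all genes lower). The S-phase enzymes Rrm2 and Tk1 changed by -3.90 and -3.47 in control marrow-derived cells, and Ccna2, cyclin A, by -3.41. Foxm1, a transcription factor of mitotic genes, was at 9.14, 9.23 and 8.47 TPM with LPS in wt RAW264.7 cells at 16 h, against 47.7, 50.9 and 48.3 TPM with vehicle, a change of -2.33 ± 0.06 (SE; adjusted p = 2.82e-15) with no overlap. In control marrow-derived cells it changed by -1.75. Cdkn1a, the cyclin-dependent kinase inhibitor p21, was at 1955, 1826 and 1952 TPM with LPS in control marrow-derived cells, against 169, 152 and 153 TPM with vehicle. Its change was 3.59 ± 0.06 (SE; adjusted p = 9.3e-18), higher in 3 of 3 LPS libraries, and in wt RAW264.7 cells it was 1.12 at 16 h and 0.54 at 6 h.

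Under vehicle in cells labelled Setd1bKO, 29 of 38 replication genes and 15 of 24 other mitotic genes were lower than in controls, 1 and 0 higher (15.4% of all genes lower and 9.89% higher). The log2 difference was -1.04 for Foxm1, -1.50 for Ccna2 and -1.39 for the G1 cyclin Ccnd1 (adjusted p = 2.41e-08). With Dex and LPS against LPS, 45 of 45 replication genes were higher in wt RAW264.7 cells at 16 h and 25 of 45 at 6 h, beside 35.2% and 14.7% of all genes, and 0 and 2 were lower. E2f1, a transcription factor of S-phase genes, had a change of 0.68 at 16 h (adjusted p = 2.73e-06) and 0.23 at 6 h (0.0155). With Dex alone at 6 h, 39 of 45 replication genes were lower and 1 higher in wt cells (24.8% and 12% of all genes), and the change of Ccnd1 was -1.03 (adjusted p = 4.34e-11). With IFNB1 and LPS against LPS, 35 of 45 replication genes fell and 1 rose in Setd1aDel/+ cells (43.6% and 10.5% of all genes), and 32 and 0 in wt cells (23.5% and 9.5%). The change of Foxm1 was -0.54 in Setd1aDel/+ cells (adjusted p = 1.84e-05) and -0.35 in wt cells (0.000761).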

How the data were processed

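Poly(A) RNA was sequenced from stranded libraries made with 500 ng RNA, per the labels. The submitters' processing notes name Salmon 0.10.2, DESeq2, R 3.6.0 and the build GRCm38.p6 (mm10). The deposited tables hold TPM (length-corrected transcript levels scaled to a fixed total) per gene and library, made by the authors; the IFNB1 table gives no unit in its header and was read as TPM from its sums. Beside them the authors deposited log2 fold changes and adjusted p-values, with raw p-values in the marrow-derived and IFNB1 tables and standard errors in the IFNB1 table, and a mean normalized count (a signal averaged over libraries), which was not analysed here. The tables listed 8983 to 18254 genes, chosen by the authors in a way not given in the sources used here. Every column of library values was used. TPM keep no depth, so no count test was run and the depth per library is unknown.

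Values were taken as log2(TPM + 1) for genes that reached 1 TPM in 3 or more libraries and fitted with limma 3.58.1 in R 4.3.3, with 1 mean per group, a trended variance and each experiment alone; differences between the 16 h and 6 h experiments came from a joint fit. Benjamini-Hochberg adjustment ran over all genes tested, and adjusted p under 0.05 was called. The script was tested on simulated data. Promoter letters were searched with Python 3.11.15. The alternatives tried were median-of-ratios scaling, 0.1 as pseudocount, all genes kept without the filter, replicate number as a block, the compared groups fitted alone, each library left out, and a promoter window of 150 bases. The 44 members and the other lists were chosen with earlier results of these data known, and 3 differences (Dex with LPS minus Dex alone in each genotype, and the 16 h minus 6 h Setd1aDel/+ effect under LPS) were added after seeing the data. Genes outside the members were named from a list of 19 regulators and targeted genes; the rule also took the 4 called genes of largest change and at least 5 TPM in the higher group of each other list, which are not printed.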

Additional observations from a re-analysis of the deposited data

Results flagged for a closer look

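Effects that differed between genotypes, as tested on the difference itself, are counted here over the members, with the shares of all genes called lower and higher beside them. In marrow-derived cells the LPS change differed between cells labelled Setd1bKO and controls for 28 of 31 members (5.43% of all genes lower and 16.4% higher), and the Dex change under LPS for 4 (3.53% and 2.69%). The members' median difference between the labels was -0.99 with vehicle and -0.03 with LPS, so that the count of 28 carries the lower vehicle level. With LPS 20 of 31 members averaged under 1 TPM under either label. In the 16 h experiment the LPS change differed between Setd1aDel/+ and wt cells for 8 of 44 members (20.3% and 13.1%), a smaller share than of all genes. The Dex change under LPS differed there for 11 (7.68% and 2.88%). In the 6 h experiment the counts were 13 for LPS (2.63% and 2.97%), 3 for Dex under LPS (2.04% and 3.25%) and 1 for Dex alone (0.1% and 0.189%). The IFNB1 change differed between Setd1aDel/+ and wt cells for 18 members (8.01% and 3.31%).

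Between the 16 h and 6 h experiments the wt LPS change differed for 29 members (28.7% and 9.02%) and the wt Dex change under LPS for 15 (4.36% and 9.14%). The Setd1aDel/+ effect differed for 15 under vehicle (11.7% and 11.6%) and for 39 under LPS (27.8% and 13.6%). The Dex change under LPS differed from that of Dex alone for 37 members in Setd1aDel/+ cells (9.52% and 20.6%) and 40 in wt cells (9.24% and 21.2%). The counts of 39, 37 and 40 come from comparisons added after seeing the data. The groups held 3 libraries each, too few to look for single libraries far from the others.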

How the results depend on the processing

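The counts of called members in all 42 comparisons stayed within 1.5 times the reported count with a pseudocount of 0.1, without the filter and with the replicate number as a block. With the block, 16 members were called for the IFNB1 difference (18) and 10 for the genotype difference of Dex changes at 16 h (11). The numbers were not taken as pairs: correlations of the deviations of same-numbered libraries ran from -0.302 to 0.278, and no comparison had all 3 over 0.1. Median-of-ratios scaling turned the direction of the Dex comparison with LPS in marrow-derived cells, with 7 called in cells labelled Setd1bKO (9 reported) and 7 in controls (12). It gave 7 for the genotype difference of the Dex change at 16 h (11), 10 for the IFNB1 difference (18), 8 for the 16 h minus 6 h Dex difference (15) and 23 for that of the Setd1aDel/+ effect under vehicle (15). The compared groups were also fitted alone, with fewer libraries. For Dex with LPS in marrow-derived cells, only 11 of 31 members then passed the filter in cells labelled Setd1bKO and 13 in controls. Of these, 4 were called in cells labelled Setd1bKO and, with the direction turned, 5 in controls. In the same fits Setd1aDel/+ against wt cells at 6 h gave 15 under LPS (25), 20 under Dex and LPS (33) and 2 under Dex (8). The genotype difference of LPS changes at 16 h gave 5 (8) and that of Dex changes under LPS at 6 h 0 (3).

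Leaving out 1 library at a time gave 3 to 8 called members for Dex with LPS in cells labelled Setd1bKO and 7 to 12 in controls; the direction turned without replicate 2 of the Dex and LPS group labelled Setd1bKO (3), replicate 1 (5) or 2 (3) of its LPS group, or control Dex and LPS replicate 3 (7). The ranges were 6 to 13 for the genotype difference of Dex changes at 16 h, 5 to 9 for that of LPS changes at 16 h, and 7 to 12, 0 to 4 and 0 to 1 for those of LPS, Dex under LPS and Dex alone at 6 h. They were 2 to 6 for Setd1aDel/+ against wt cells under Dex at 6 h and 9 to 25 for the IFNB1 difference. The cause of these shifts was not tested. Scaling also turned the sign of single members: Pttg1 (-0.0329) and Incenp (-0.0233) for Dex with LPS in cells labelled Setd1bKO, Nuf2 (0.0018) and Smc2 (0.0003) for Setd1aDel/+ against wt under LPS and Incenp (0.0114) under Dex and LPS at 16 h, and Racgap1 (0.0019) under IFNB1 and LPS. In 150 bases before the start TTCGAA was in 1 member promoter, against 2 in 250. A CHR was then in 13 (34.2%, against 9.89% of all) and a CCAAT box in 27 (71.1%, against 25.3%). Without depth, values under 1 TPM, which hold 18 to 20 members in marrow-derived cells labelled Setd1bKO after LPS and 16 to 20 in controls, limit what could be seen.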

Other observations

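Ccnd2, which encodes the G1 cyclin D2, is listed at 0 in all 6 wt libraries of the IFNB1 experiment. In Setd1aDel/+ libraries of that experiment it was at 51.8, 55.5 and 58.9 TPM with IFNB1 and LPS and 43.7, 48.2 and 43.8 TPM with LPS. In wt cells of the 6 h experiment it was at 30.3, 30.3 and 33.3 TPM with LPS. In marrow-derived cells it was at 24.5, 29.2 and 24.6 TPM with LPS and 0.0866, 0.112 and 0.136 TPM with vehicle in cells labelled Setd1bKO. In controls it was at 62.9, 63.6 and 63.3 TPM with LPS and 0.785, 0.338 and 0.391 TPM with vehicle. The LPS libraries thus stood far above the vehicle libraries under both labels, while most mitosis genes stood below.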
